A study of Mus musculus with 18 samples.

Results

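The genes described here are 3 embryonic globin genes, Hbb-y, Hbb-bh1 and Hba-x, and 5 genes of the red cell membrane and its skeleton, Slc4a1, Epb42, Sptb, Rhag and Ank1. They were taken by symbol, as the 19 probe sets annotated with 1 of these names alone, among 45037 probe sets that stand for 18193 genes. The arrays, Affymetrix mouse expression arrays with 1 whole embryo of day 9.5 (E9.5) on each, numbered 18 and form an allelic series of Tbx1, a transcription factor gene of the pharyngeal region. All were of mixed background (129SvEv with C57Bl/6), per the labels, and each of 9 genotypes had 2 biological replicates. The genotypes without a wild-type allele were Tbx1-/-, Tbx1Neo/Neo, Tbx1Neo2/-, Tbx1Neo2/Neo and Tbx1Neo2/Neo2. Those with 1 wild-type allele were Tbx1+/-, Tbx1Neo/+ and Tbx1Neo2/+, and the controls were Tbx1+/+ (WT). The minus sign stands for a null allele, and Neo and Neo2 are targeted alleles that leave part of the activity of Tbx1. The sources used here do not give litters, and with 2 embryos a genotype precision is limited.

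In the mouse embryo of this age, blood consists mainly of primitive erythroid cells, which arise in the blood islands of the yolk sac, enter the circulation while still nucleated and mature there together. They make embryonic haemoglobin from the alpha-like chain of Hba-x and the beta-like chains of Hbb-bh1 and Hbb-y, and Hbb-bh1 gives way to Hbb-y as the cells mature. As they mature they also build a membrane skeleton. Sptb encodes the beta chain of spectrin, Ank1 the ankyrin that ties spectrin to the membrane, Slc4a1 the anion exchanger to which ankyrin binds, Epb42 a protein that steadies this contact, and Rhag the Rh-associated glycoprotein of the same membrane complexes.

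Over the 18 embryos the signals of the 8 genes were correlated, with r of 0.65 to 0.96 for their pairs. Within genotypes the order of the embryos could differ between genes, as for the brightest Slc4a1 probe set and Hba-x in Neo/Neo, +/- and Neo2/+. Which genotypes differed depended on the probe set. At a second Slc4a1 probe set the order in these genotypes was that of Hba-x, and in Neo2/Neo it was the opposite. With all arrays no probe set of theirs passed limma's test against WT in any genotype. Mean signals were highest in Neo2/Neo embryos for 7 of the 8 genes and low in Neo2/Neo2, +/-, Neo2/+ and -/- embryos, an order unlike that of the Tbx1 signal. The 2 -/- embryos lay far apart, 1 at the top of the series for Rhag and 1 at its bottom. At the brightest probe sets, membrane genes ranged over more log2 units than globins. In RNA of whole embryos, fewer red cells and less RNA of a gene in each red cell cannot be told apart.

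Array medians lay between 5.73 and 5.94 (log2), and 2 arrays stood apart, +/- replicate 1 and -/- replicate 1, with median correlations to the other arrays of 0.975 and 0.985, against 0.991 to 0.995 for the rest. Tbx1 itself, read at its only probe set, averaged 5.07 ± 0.13 in -/-, 5.12 ± 0.11 in Neo/Neo, 5.71 ± 0.13 in Neo2/-, 5.66 ± 0.02 in Neo2/Neo, 6.62 ± 0.00 in Neo2/Neo2, 6.37 ± 0.34 in +/-, 6.30 ± 0.07 in Neo/+, 6.54 ± 0.07 in Neo2/+ and 6.59 ± 0.06 in WT (log2 signal, SD, n = 2 each). The arrays labelled Neo2/Neo2 thus had the Tbx1 signal of WT. By Xist, 9 embryos were female and 9 male; both -/- and both WT embryos were female, and both Neo/Neo and both Neo2/Neo2 embryos male.

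The sequence upstream of the start site is shown for the 2 globin genes that RefSeq's table (mouse build GRCm38.p6) holds and for Rhag. Rhag is the membrane gene with the widest gap between replicates, and over the 18 arrays it had r = 0.68 with Hbb-y and 0.93 with Hba-x. The table held 5 of the 8 genes, which were Hbb-y, Hba-x, Epb42, Sptb and Rhag. Each run gives the 250 bases before the start site, 5′ to 3′ on the gene's strand. Hbb-y lies on the minus strand at chr7:103853208-103853457, Hba-x on the plus strand at chr11:32276350-32276599 and Rhag on the plus strand at chr17:40810899-40811148. Capitals mark the GATA word, the CACCC box, the CCAAT box and the letters TATAAA, on either strand.
Hbb-y: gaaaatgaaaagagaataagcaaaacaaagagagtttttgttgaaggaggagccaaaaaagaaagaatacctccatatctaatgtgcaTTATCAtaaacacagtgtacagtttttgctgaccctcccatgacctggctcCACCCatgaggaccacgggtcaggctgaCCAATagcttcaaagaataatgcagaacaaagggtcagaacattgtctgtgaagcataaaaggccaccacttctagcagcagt
Hba-x: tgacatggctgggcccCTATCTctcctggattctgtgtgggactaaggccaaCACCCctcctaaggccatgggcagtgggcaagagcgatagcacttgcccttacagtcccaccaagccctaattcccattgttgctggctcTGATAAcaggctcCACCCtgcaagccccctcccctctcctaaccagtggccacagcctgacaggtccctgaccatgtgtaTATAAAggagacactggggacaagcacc
Rhag: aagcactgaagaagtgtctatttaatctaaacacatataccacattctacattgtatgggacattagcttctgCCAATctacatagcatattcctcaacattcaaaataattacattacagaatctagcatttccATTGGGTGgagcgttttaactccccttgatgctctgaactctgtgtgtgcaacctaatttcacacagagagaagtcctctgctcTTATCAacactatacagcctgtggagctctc

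A GATA word, the kind of letters that the erythroid factor Gata1 binds, occurred upstream of Hbb-y, Hba-x, Epb42 and Rhag, and in 26.5% of all 32851 promoters of the table over the same 250 bases. CACCC, the core of the site of the erythroid factor Klf1, occurred upstream of Hbb-y, Hba-x, Sptb and Rhag, and in 52% of all promoters. CCAAT occurred upstream of Hbb-y and Rhag (33.8% of all) and TATAAA upstream of Hba-x and Epb42 (12.4% of all). In Rhag a CCAAT and a CACCC, both read on the opposite strand, overlap in 1 run of capitals. The GATA word searched was GATAA or else GATAG, each with an A or a T directly before it, on both strands. These matches describe letters and say nothing of binding.

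Hba-x, the zeta-like globin gene, had 1 probe set. Its log2 signal was 14.06 and 13.52 in -/-, 13.95 and 13.92 in Neo/Neo, 14.04 and 14.14 in Neo2/-, 14.18 and 14.21 in Neo2/Neo, 13.82 and 13.60 in Neo2/Neo2, 13.75 and 13.74 in +/-, 13.94 and 13.79 in Neo/+, 13.85 and 13.79 in Neo2/+, and 14.12 and 14.08 in WT embryos. Both Neo2/Neo embryos lay above all others, and -/- replicate 2 and Neo2/Neo2 replicate 2 below all others. The mutant means ran from 14.19 in Neo2/Neo through 14.09 in Neo2/-, 13.94 in Neo/Neo, 13.86 in Neo/+, 13.82 in Neo2/+, 13.79 in -/- and 13.75 in +/- to 13.71 in Neo2/Neo2, and WT, at 14.10, lay just above Neo2/-. Neighbours in that order lay closer together than the SD within genotypes of 0.15, except for Neo2/- and Neo/Neo, which lay about that far apart. The SD of the 2 -/- embryos alone was 0.38.

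Hbb-bh1, the early beta-like globin gene, had 3 probe sets, which ranged over 0.41 to 0.53 log2 units between the lowest and the highest array. The brightest averaged 14.12 ± 0.18 in -/-, 14.33 ± 0.02 in Neo2/Neo, 14.07 ± 0.14 in Neo2/Neo2 and 14.33 ± 0.06 in WT (SD, n = 2 each). The other mutant genotypes lay between the Neo2/Neo2 and Neo2/Neo means. Hbb-y, the later beta-like gene, ranged over 0.36 to 0.61 at its 3 probe sets, and the brightest averaged 14.11 ± 0.06 in -/-, 14.17 ± 0.10 in Neo2/Neo2 and 14.33 ± 0.03 in WT, with 14.37 and 14.43 in the 2 Neo2/Neo embryos. Hbb-y and Hbb-bh1 are close copies, and the brightest probe set of each has the _x_at suffix, which marks probes shared with other sequences, so the array may not fully separate them.

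The globin signals lie at the top of the array. The 7 globin probe sets were between rank 1 and rank 142 of 45037 on every array, and 0 to 7 of them stood among the 20 brightest. RMA, the authors' normalization, gives every array nearly the same distribution, and the highest value of an array lay between 14.29 and 14.44. The 249 other probe sets with a mean of 13 or more ranged over a median of 0.29 log2 units over the 18 arrays, with 0.72 for those with a mean of 6 to 8 and 0.60 for those of 9 to 11. Globin ranges of 0.36 to 0.69 were thus above the median of bright probe sets, and among them Hba-x (0.69) and 1 probe set of Hbb-y (0.61) exceeded 0.60. How far the top of the scale limits globin differences was not tested.

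**Figure D1:**
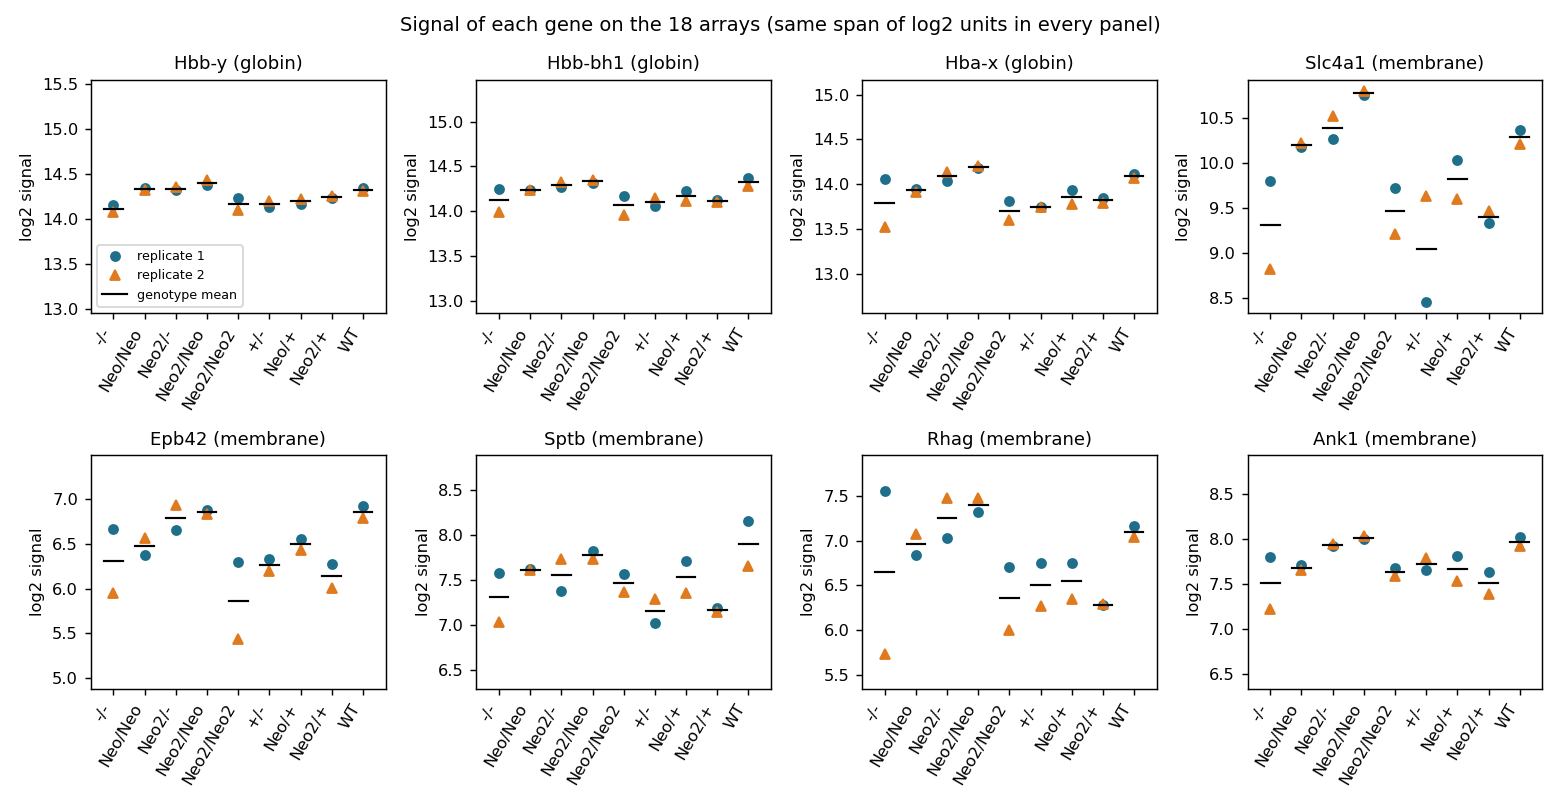
Log2 signal of the brightest probe set of each gene (vertical axis, same span in each panel) on the 18 arrays, by genotype. Circles are replicate 1, triangles replicate 2 and bars genotype means; Neo2/Neo embryos lie at or near the top in every panel, and the -/- embryos lie 1.82 apart for Rhag and 0.08 apart for Hbb-y.

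Slc4a1, the anion exchanger gene, varied most. At its brightest probe set the log2 signal was 9.80 and 8.81 in -/-, 10.18 and 10.22 in Neo/Neo, 10.27 and 10.52 in Neo2/-, 10.76 and 10.81 in Neo2/Neo, 9.72 and 9.21 in Neo2/Neo2, 8.45 and 9.63 in +/-, 10.04 and 9.60 in Neo/+, 9.33 and 9.46 in Neo2/+, and 10.36 and 10.21 in WT embryos. Both Neo2/Neo embryos were the highest of the 18, and the range over the arrays was 2.36 log2 units, 5.13-fold. The value of 8.45 belongs to +/- replicate 1, an array that stood apart, and a second probe set of Slc4a1 had 9.35 there and 9.27 in the other +/- embryo. That second probe set averaged 9.13 ± 0.81 in -/-, 10.17 ± 0.03 in Neo2/Neo, 9.24 ± 0.32 in Neo2/Neo2 and 9.97 ± 0.24 in WT. The dimmest one averaged 5.37 ± 0.27 in -/-, 6.83 ± 0.13 in Neo2/Neo, 5.03 ± 0.68 in Neo2/Neo2 and 6.17 ± 0.08 in WT, so all 3 probe sets had Neo2/Neo above WT and -/- and Neo2/Neo2 below it.

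Rhag showed the widest gap between replicates. Its log2 signal was 7.56 and 5.74 in -/-, 6.84 and 7.07 in Neo/Neo, 7.03 and 7.47 in Neo2/-, 7.32 and 7.47 in Neo2/Neo, 6.71 and 6.01 in Neo2/Neo2, 6.75 and 6.27 in +/-, 6.75 and 6.35 in Neo/+, 6.28 and 6.30 in Neo2/+, and 7.16 and 7.04 in WT embryos. The -/- embryos held both the highest and the lowest of the 18 values, 1.82 apart, while the largest gap within any other genotype was 0.70. Gaps between the -/- embryos were 0.54 for Hba-x, 0.58 for Ank1 and 0.55 for Sptb, and the largest within another genotype were 0.22, 0.27 and 0.50. For Slc4a1 and Epb42 another genotype had a larger gap, 1.19 in +/- and 0.86 in Neo2/Neo2, against 0.99 and 0.72 in -/-. Over all 45037 probe sets, 3.09% differed by more than 1 log2 unit between the -/- embryos.

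Epb42, Sptb and Ank1 varied less than Slc4a1 and Rhag. Epb42 averaged 6.31 ± 0.51 in -/-, 6.85 ± 0.03 in Neo2/Neo, 5.87 ± 0.61 in Neo2/Neo2 and 6.85 ± 0.10 in WT, and a second probe set ranged over 1.57 log2 units. Sptb averaged 7.30 ± 0.39 in -/-, 7.78 ± 0.06 in Neo2/Neo, 7.46 ± 0.14 in Neo2/Neo2 and 7.90 ± 0.35 in WT, the only one of the 8 genes whose WT mean was the highest. Its dimmer probe set, at a mean of 5.44, ranged over 0.74 and disagreed with the brighter one, with 5.58 in Neo2/Neo2 against 5.42 in WT. Ank1 averaged 7.51 ± 0.41 in -/-, 8.02 ± 0.03 in Neo2/Neo, 7.64 ± 0.06 in Neo2/Neo2 and 7.97 ± 0.07 in WT. Its 3 dimmer probe sets, with means of 3.79 to 5.75, ranged over 0.43 to 0.97. RMA values carry no detection call, so signals this low cannot be told from background.

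Each mutant genotype was compared with WT to ask whether red cell transcripts respond to Tbx1 dosage, and the same 2 WT arrays serve in all 8 comparisons. In -/- embryos all 8 genes, and 17 of the 19 probe sets, had lower means than WT (50.4% of all probe sets did), with differences of -0.98 for Slc4a1 (SE 0.35), -0.60 for Sptb (SE 0.20), -0.54 for Epb42 (SE 0.25), -0.46 for Ank1 (SE 0.16) and -0.45 for Rhag (SE 0.43) among membrane genes. The globins had -0.30 for Hba-x (SE 0.14), -0.21 for Hbb-y (SE 0.085) and -0.20 for Hbb-bh1 (SE 0.11). limma's adjusted p-values, over all probe sets, ran from 0.212 to 0.684, and 0 of the 19 probe sets were called at an adjusted p under 0.05, against 0.0311% of all probe sets. At an unadjusted p under 0.05, 7 were lower, against 6.72% of all. The sign for Rhag rested on 1 embryo: without -/- replicate 2 its difference was 0.46 (adjusted p = 0.383), and without -/- replicate 1 it was -1.36 (adjusted p = 0.161). Without -/- replicate 2 the other differences were -0.49 for Slc4a1, -0.32 for Sptb, -0.19 for Epb42, -0.17 for Ank1, -0.034 for Hba-x, -0.17 for Hbb-y and -0.075 for Hbb-bh1, all but that of Hbb-y smaller by over 1.5 times. When the arrays that stood apart were both left out, the difference of Slc4a1 was -1.47. The -/- group is then replicate 2 alone, the lowest embryo of the series on both mean scales, and it is assumed to vary as embryos of the other genotypes do.

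In Neo2/Neo2 embryos, whose Tbx1 signal was close to that of WT, 17 of the 19 probe sets were also below WT (49% of all probe sets were). Epb42 had -0.99 (SE 0.25), Slc4a1 -0.82 (SE 0.35), Rhag -0.74 (SE 0.43), Sptb -0.44 (SE 0.20) and Ank1 -0.33 (SE 0.16), and Hba-x had -0.39 (SE 0.14), Hbb-bh1 -0.26 (SE 0.11) and Hbb-y -0.16 (SE 0.085), with adjusted p-values from 0.202 to 0.546. Without Neo2/Neo2 replicate 2 the difference was -0.56 for Epb42, -0.39 for Rhag, -0.16 for Hbb-bh1 and -0.09 for Hbb-y, and without WT replicate 1 it was -0.19 for Sptb. No probe set of the 19 was called by limma, against 0.00222% of all, and 10 were lower at an unadjusted p under 0.05, against 5.59% of all. Without the 2 arrays that stood apart 4 of the 19 passed, when 911 probe sets of all did, among them Slc4a1 (adjusted p = 0.0415) and Epb42 (adjusted p = 0.0467).

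The heterozygotes, which keep a wild-type allele, also had all 8 means below WT, with 19 of the 19 probe sets below WT in Neo2/+ (50.4% of all), 19 in +/- (42.4%) and 17 in Neo/+ (48.6%). In Neo2/+ the membrane genes had differences from -0.46 (Ank1) to -0.89 (Slc4a1) and the globins from -0.08 (Hbb-y) to -0.28 (Hba-x), with adjusted p-values from 0.660 to 0.958. In +/- they ran from -0.25 (Ank1) to -1.25 (Slc4a1) and from -0.16 to -0.35, with adjusted p-values from 0.390 to 0.608, and in Neo/+ from -0.30 (Ank1) to -0.55 (Rhag) and from -0.13 to -0.24, with adjusted p-values from 0.732 to 0.844. limma called 0 of the 19 probe sets in each, against 0%, 0% and 0.0311% of all in Neo2/+, +/- and Neo/+. At an unadjusted p under 0.05, 7, 8 and 3 were lower in these 3 genotypes, against 4.55%, 4.49% and 3.5% of all. The -1.25 of Slc4a1 in +/- rests on the array that stood apart, and without it the difference was -0.65 (adjusted p = 0.802; 0.429 with -/- replicate 1 left out as well). Without the other +/- array it was -1.84 (adjusted p = 0.0021), and 2 of the 19 were called, when 5066 probe sets of all were, but the +/- group is then only the array that stood apart, with its spread taken from the other genotypes.

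Neo/Neo, Neo2/- and Neo2/Neo embryos lay closer to WT. In Neo/Neo, with a Tbx1 signal as low as that of -/-, the 8 genes had differences from -0.38 to 0.01, in Neo2/- from -0.35 to 0.15 and in Neo2/Neo from -0.13 to 0.50, with Slc4a1 the highest there. limma called 0 of the 19 in each, against 0.0822%, 0.00222% and 0.00222% of all, with 0, 1 and 1 at an unadjusted p under 0.05, against 7.01%, 6.28% and 6.72%. Read as plain separation of the arrays, both Neo2/Neo embryos lay above both WT embryos at 10 of the 19 probe sets, against 20.1% of all probe sets. Both arrays lay below both WT arrays at 13 of the 19 in -/- (18.6% of all), 13 in Neo/Neo (20.7%), 2 in Neo2/- (20%), 16 in Neo2/Neo2 (21.7%), 16 in +/- (12.3%), 15 in Neo/+ (18.6%) and 18 in Neo2/+ (20.7%). The probe sets of a gene, and the genes themselves, share these embryos, so these counts hold little independent evidence.

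**Figure D2:**
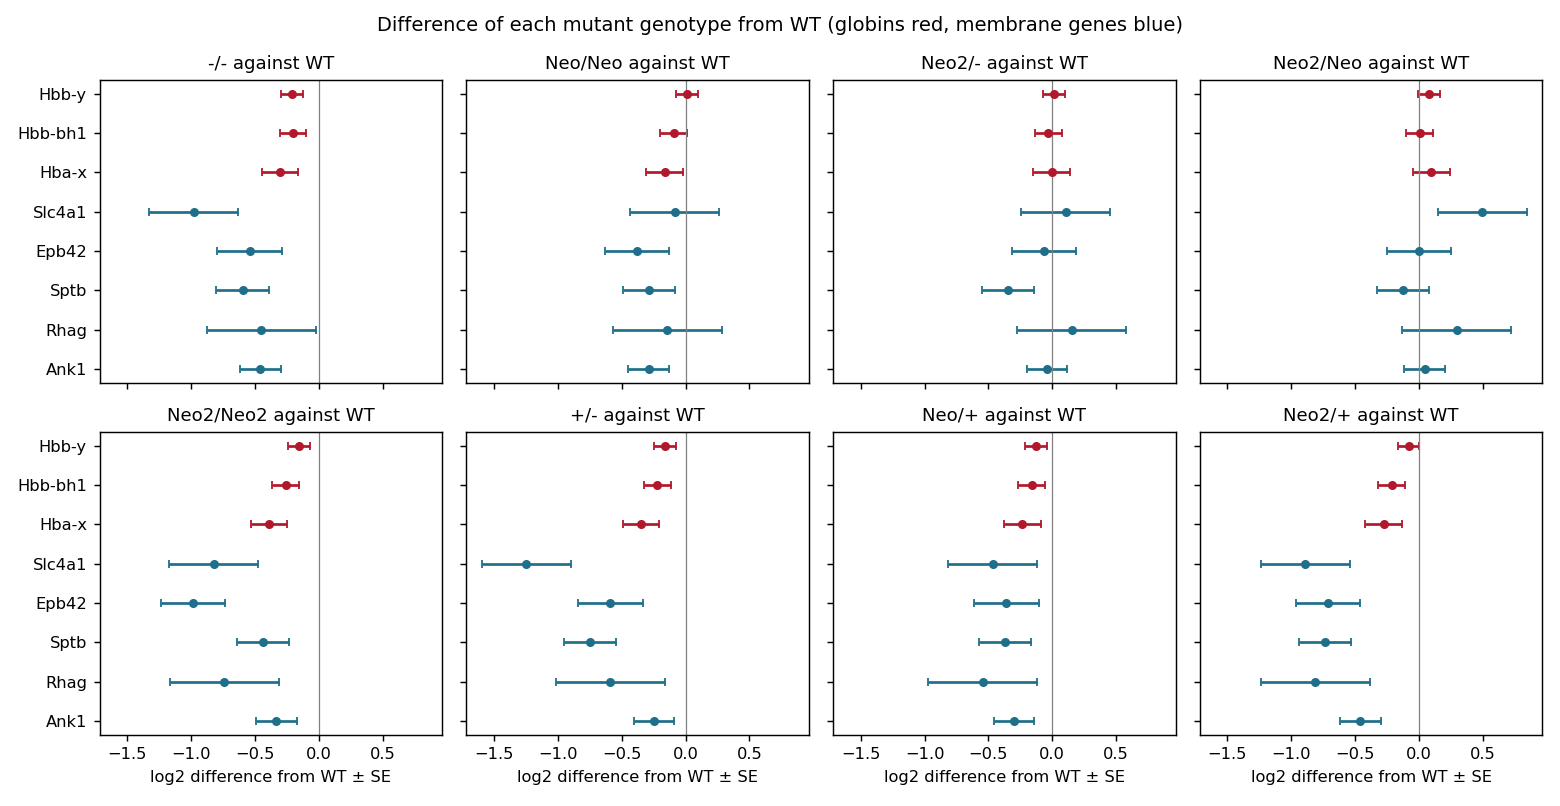
Log2 difference of each mutant genotype from WT (horizontal axis) with its SE, for the brightest probe set of the 3 globins (red) and 5 membrane genes (blue). All 8 points lie left of 0 in -/-, Neo2/Neo2, +/-, Neo/+ and Neo2/+. In Neo/Neo 7 of the 8 lie left of 0, in Neo2/- 5 and in Neo2/Neo 1.

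Neo2/Neo2 was set against Neo2/Neo, the genotypes with the lowest and highest signals for several genes, a pair chosen for these extremes with earlier results of these data known, so its p-values and counts are biased toward a difference and serve as a description. Slc4a1 averaged 9.46 ± 0.36 in Neo2/Neo2 embryos and 10.78 ± 0.03 in Neo2/Neo embryos, a difference of -1.32 (SE 0.35, adjusted p = 0.0666). Rhag averaged 6.36 ± 0.50 in Neo2/Neo2 embryos and 7.39 ± 0.11 in Neo2/Neo embryos, a difference of -1.04 (SE 0.43), Epb42 had -0.99 (SE 0.25) and Hba-x -0.49 (SE 0.14). Both Neo2/Neo2 embryos lay below both Neo2/Neo embryos for the brightest probe set of all 8 genes, and at 16 of the 19 probe sets, against 25.2% of all. The difference was below 0 at 17 of the 19 (42.9% of all), and 14 were lower at an unadjusted p under 0.05, against 8.91% of all. limma called 1 of the 19, the dimmest Slc4a1 probe set, which had 5.51 and 4.55 in Neo2/Neo2 and 6.92 and 6.74 in Neo2/Neo embryos, a difference of -1.81 (SE 0.25, adjusted p = 0.0112), against 2.65% called of all probe sets. With a mean of 5.70 over the 18 arrays, this probe set too cannot be told from background by its signal alone. That call was lost without Neo2/Neo2 replicate 2 or either Neo2/Neo array (0 of the 19 each). Without both arrays that stood apart 11 of the 19 passed, when 4992 probe sets of all did.

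Shared effects were asked for in further fits. The moderated F-test of any difference between the 9 genotypes called 0 of the 19 probe sets, against 0.275% of all, with 9 at an unadjusted p under 0.05, against 13.7%. With the 2 arrays that stood apart left out, more of the 19 passed, but so did more of all probe sets. The -/- and +/- groups then rest on a lone array each. With 0 against 1 wild-type allele (n = 10 against 6), all 8 genes were higher with 0, by 0.61 for Slc4a1 (SE 0.28), 0.47 for Rhag (SE 0.24), 0.26 for Sptb (SE 0.12) and 0.13 for Hba-x (SE 0.094), with adjusted p-values from 0.888 to 0.911. limma called 0 of the 19, against 0% of all, and 3 had an unadjusted p under 0.05, against 4.53%. In the additive fit the median change of the membrane genes was -0.02 per Neo2 allele, 0.06 per Neo allele and -0.08 per null allele, that of the globins -0.02, 0.04 and -0.05, and 0 of the 19 were called for each, against 0%, 0.0688% and 0.00222% of all, with 0 of the 19 at an unadjusted p under 0.05, against 4.8%, 7.01% and 10.8%.

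Globins and membrane genes were set beside each other within each embryo, as the mean deviation of the 3 globins and of the 5 membrane genes from their means over the 18 arrays. The same 5 embryos held the top 5 places on both scales, which were both Neo2/Neo and both WT embryos and Neo2/- replicate 2. The lowest places on both were -/- replicate 2, at -0.71 for membrane genes and -0.26 for globins, then Neo2/Neo2 replicate 2, at -0.54 and -0.24. The membrane mean differed from WT by -0.61 in -/-, -0.66 in Neo2/Neo2, -0.68 in +/-, -0.41 in Neo/+ and -0.72 in Neo2/+, where the globin mean differed by -0.24, -0.27, -0.24, -0.17 and -0.19. The membrane mean thus lay further below WT than the globin mean in these 5 genotypes. In -/- it did so by 0.37, a gap that was 0.68 without replicate 1 and 0.05 without replicate 2. These means over chosen genes were not tested.

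**Figure D3:**
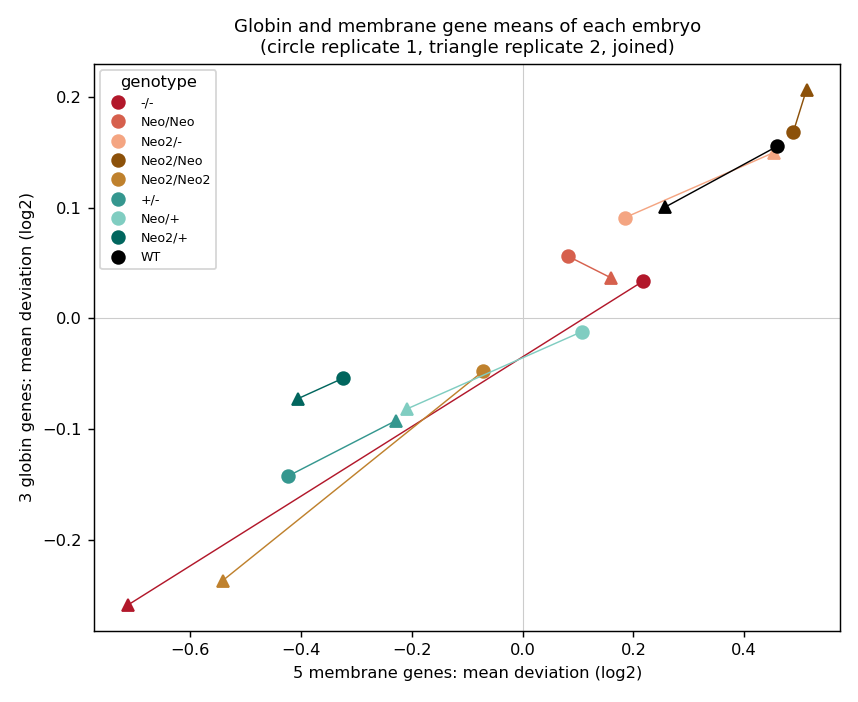
Mean deviation of the 3 globins (vertical axis, log2) against that of the 5 membrane genes (horizontal axis, log2) for each embryo, with the 2 embryos of a genotype joined (circle replicate 1, triangle replicate 2). The points lie along 1 rising line from -/- replicate 2 to Neo2/Neo replicate 2, and the -/- line spans most of it.

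Across the 18 embryos Hba-x rose with Slc4a1 (Pearson r = 0.87, Spearman rho = 0.91), by 0.27 log2 units of Hba-x for each unit of Slc4a1. The permutation p was 2e-05 for each (1 relation tested, 100000 resamples). That permutation shuffled all 18 embryos freely, although embryos of a genotype belong together, so its p-value may overstate the evidence. Without the 2 embryos farthest from the Slc4a1 median, +/- replicate 1 and -/- replicate 2, r was 0.90. Over the 9 genotype means r was 0.94, and over the deviations of embryos from their genotype mean it was 0.68 (0.45 without the -/- embryos). Within a genotype the embryo higher in Slc4a1 was also the higher in Hba-x in 6 of the 9 genotypes and the lower in Neo/Neo, +/- and Neo2/+. This was read at the brightest Slc4a1 probe set. At the second one replicate 1 was higher, as for Hba-x, in Neo/Neo (9.68 and 9.57), +/- (9.35 and 9.27) and Neo2/+ (9.16 and 9.14). In Neo2/Neo it was also higher there (10.20 and 10.15), the opposite of Hba-x. For the 28 pairs of the 8 genes r lay between 0.82 and 0.96 among globins, 0.65 and 0.93 between a globin and a membrane gene, and 0.71 and 0.87 among membrane genes, as a description over arrays that share their normalization. The lowest, 0.65, was that of Hbb-y and Sptb, and the highest, 0.96, that of Hbb-bh1 and Hba-x. Without the 2 arrays that stood apart, r lay between 0.89 and 0.97 among globins. It then lay between 0.65 and 0.96 for a globin and a membrane gene, and between 0.74 and 0.98 among membrane genes.

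**Figure D4:**
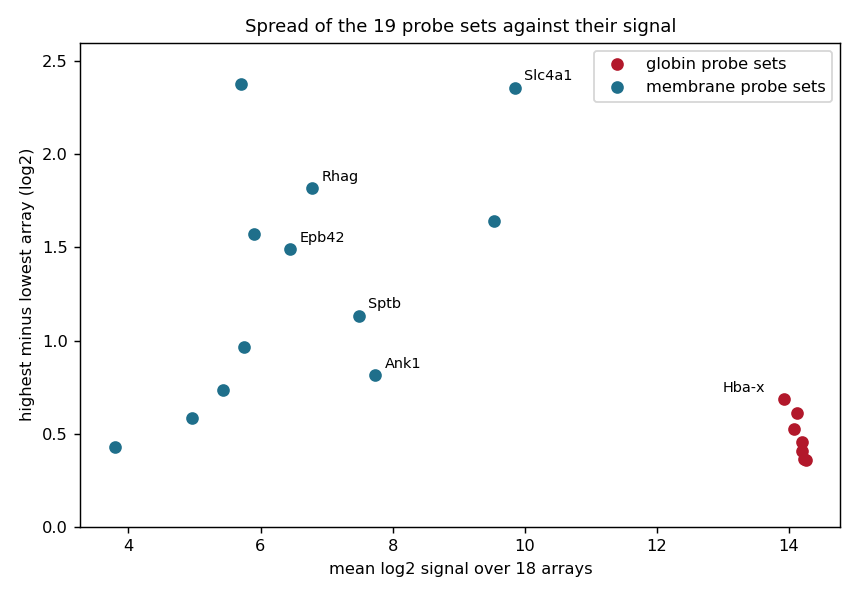
Highest minus lowest array (vertical axis, log2) against mean log2 signal over the 18 arrays (horizontal axis) for the 19 probe sets, with the brightest of Hba-x and each membrane gene named. The 7 globin probe sets lie between 0.36 and 0.69 at the right edge, and membrane probe sets reach 2.38.

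The balance of the beta-like globins was read as the difference of the brightest Hbb-y and Hbb-bh1 probe sets within an array. It averaged -0.01 ± 0.13 in -/-, 0.10 ± 0.02 in Neo/Neo, 0.04 ± 0.02 in Neo2/-, 0.07 ± 0.02 in Neo2/Neo, 0.10 ± 0.04 in Neo2/Neo2, 0.06 ± 0.02 in +/-, 0.03 ± 0.12 in Neo/+, 0.13 ± 0.04 in Neo2/+ and -0.0014 ± 0.03 in WT (SD, n = 2 each). The 2 -/- embryos had -0.10 and 0.08 and the 2 Neo/+ embryos -0.05 and 0.12, so the mutant values overlapped that of WT in some genotypes and not in others. The _a_at suffix marks probes that match transcripts of 1 gene, and Hbb-bh1 has 2 such probe sets. With the _a_at probe set of Hbb-y and the dimmer of those 2, the difference was 0.05 and -0.02 in Neo2/+ embryos against 0.13 and 0.05 in WT embryos. With the brighter of the 2 it was -0.00045 and -0.13 in Neo2/+ embryos against -0.03 and -0.04 in WT embryos, which overlap. The direction of this difference thus depended on the probe sets chosen.

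The genes most like Hba-x over the 18 arrays, among 18185 others, were Hemgn (r = 0.96), an erythroid nuclear protein gene, Alas2 (0.95), the first enzyme of haem synthesis in red cells, Nudt4 (0.94), Tspan33 (0.94), a tetraspanin of erythroid cells, and the acid phosphatase gene Acp5 (0.93). Those most like Slc4a1 were Nudt4 and Hemgn (0.87 each), the growth factor gene Pdgfc (0.87), Strn3 (0.87) and the tubulin regulator gene Stmn1 (0.87). Hemgn ranged from 7.43 to 9.81 and Alas2 from 8.41 to 9.96 on the log2 scale.

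Other red cell genes were described by lists. Of 17 further membrane and skeleton genes, 14 were measured, and limma called 0 of them in any genotype against WT. Their median difference was -0.27 in -/- and -0.43 in Neo2/Neo2, against 0.02 and 0.04 over all genes, and 11 and 10 of the 14 were below 0. In the other mutant genotypes it was -0.13 in Neo/Neo, -0.03 in Neo2/-, 0.19 in Neo2/Neo, -0.29 in +/-, -0.17 in Neo/+ and -0.32 in Neo2/+. In Neo2/Neo2 against Neo2/Neo, Add2, which encodes the beta chain of adducin, a cap of the spectrin skeleton, averaged 6.07 in Neo2/Neo2 and 7.34 in Neo2/Neo and fell by 1.27 (SE 0.22, adjusted p = 0.0172). It was the only 1 of the 14 called, against 2.65% of all probe sets. Rhd, a partner of Rhag, had -1.44 and the blood group gene Icam4 -1.10, without a call. The glucose transporter gene Slc2a1 (0.82) and the adhesion receptor gene Cd44 (0.72), which many other cells express, and Tmod1 (0.17), the tropomodulin gene of the skeleton, had the opposite sign. Of 18 regulators and haem genes, 17 were measured and 0 were called in any genotype against WT or in this pair. Their medians against WT were -0.16 in -/-, -0.25 in Neo/Neo, -0.03 in Neo2/-, 0.09 in Neo2/Neo, -0.40 in Neo2/Neo2, -0.34 in +/-, -0.32 in Neo/+ and -0.63 in Neo2/+. All 17 were below 0 in Neo/+ and Neo2/+, and 13 to 16 in -/-, Neo/Neo, Neo2/Neo2 and +/-, against 10 in Neo2/- and 5 in Neo2/Neo. In Neo2/Neo2 against Neo2/Neo 15 of the 17 were below 0, with -1.06 for Alas2 and -0.70 for Klf1.

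Markers of other cells moved with these genes in part, and their part in the results was not tested. The mean deviation of 6 macrophage markers had r = 0.65 with the membrane gene mean over the 18 arrays, that of 6 platelet and megakaryocyte markers 0.71 and that of 7 yolk sac endoderm markers 0.57, while 6 endothelial markers had -0.32. Summed signals are given as the log2 of the sum of unlogged signals, so the brightest genes weigh most in them. The sum of the yolk sac markers lay between 8.90 and 9.82 in Neo2/Neo2 embryos and between 11.75 and 11.78 in Neo2/Neo embryos. In -/- embryos it lay between 9.72 and 10.77, against 10.34 to 10.81 in WT embryos. This sum largely follows Afp, and the median difference of the 7 markers in Neo2/Neo2 against Neo2/Neo was -0.73. Afp, the alpha-fetoprotein gene of yolk sac endoderm, fell by 3.39 in Neo2/Neo2 against Neo2/Neo (SE 0.62, adjusted p = 0.0208), the only 1 of the 7 called, against 2.65% of all probe sets. Amn (0.41) and Cubn (0.09), receptor genes of the same endoderm, had the opposite sign, and Afp averaged 7.99 in Neo2/Neo2 and 11.37 in Neo2/Neo. The macrophage sum lay between 7.46 and 7.61 in Neo2/Neo2 and between 8.03 and 8.07 in Neo2/Neo embryos. Cx3cr1, the fractalkine receptor gene, was called by limma of the 6 (-1.10, adjusted p = 0.0115). Its mean signal of 4.30 cannot be told from background. The same holds for Adgre1 (4.71), Fcgr1 (5.16), Mrc1 (4.92) and Ptprc (3.93), so the r and the sums of this list include such signals. The platelet sum lay between 8.96 and 9.17 in Neo2/Neo2 and between 9.65 and 9.66 in Neo2/Neo embryos, and the endothelial sum between 10.58 and 10.67 in Neo2/Neo2 and between 10.45 and 10.49 in Neo2/Neo embryos, with 0 of 6 called in each. In -/- embryos the macrophage sum lay between 7.45 and 8.04 and the platelet sum between 9.17 and 9.77, against 7.74 to 7.86 and 9.54 to 9.96 in WT embryos. No marker of these lists was called in any genotype against WT.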

How the data were processed

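RNA of whole embryos was labelled with biotin and hybridised to Affymetrix arrays, 1 embryo each. The deposited values are log2 signals per probe set. The submitters' processing notes name affy and RMA, whose steps are background correction, quantile normalization and median polish over probes, and the versions are not given in the sources. Values were used as deposited, with no filter.

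The annotation gave 1 symbol to 34945 of 45037 probe sets, several to 932 and none to 9160. A gene was represented by its brightest probe set, by mean signal. Differences were tested two-sided with limma 3.58.1 in R 4.3.3 (lmFit and eBayes), with Benjamini-Hochberg adjustment over all probe sets and a threshold of 0.05. A fit with 9 genotype means left 9 residual and 3.63 prior degrees of freedom, a fit by number of wild-type alleles left 15 and an additive fit of Neo2, Neo and null alleles 14. SE is limma's moderated standard error. Embryo sex was called from Xist.

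In a test on simulated data (45037 probe sets; 50 changed by 0.5, 50 by 1 and 100 by 2 log2 units), -/- against WT recovered 24% of changes of 0.5, 76% of 1 and 96% of 2 log2 units, with 6 false calls. In Neo2/Neo2 against Neo2/Neo the shares were 36%, 78% and 95%, with 6 false calls.

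The genes described, the lists and the pair Neo2/Neo2 and Neo2/Neo were chosen with earlier results of these data known. All member probe sets were counted. The 5 genes most like Hba-x and Slc4a1 by Pearson r were named, members left out, and other genes came from the lists, those called first. Alternatives were a replicate block, an intensity trend, array weights, a filter on dim probe sets, centring each array on its median, embryo sex, the mean over a gene's probe sets and leaving out arrays.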

Additional observations from a re-analysis of the deposited data

Results flagged for a closer look

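Of 38 groups tested (19 probe sets, over the 10 embryos with 0 wild-type alleles and the 6 with 1), 2 held a value far from its neighbours, and chance alone gives about 1 in 20. At the second probe set of Hbb-bh1, Neo/+ replicate 1 had a log2 signal of 14.23, against 14.11 in the next highest of the 6 embryos with 1 wild-type allele. At the dimmest probe set of Ank1, Neo2/Neo replicate 2 had 4.08, against 3.84 in the next highest of the 10 embryos with 0 wild-type alleles.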

How the results depend on the processing

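The count of the 19 probe sets called stayed at 0 under every alternative for Neo/Neo, Neo2/-, Neo2/Neo, Neo/+ and Neo2/+ against WT, for 0 against 1 wild-type allele and for each allele term. Without the 2 arrays that stood apart it rose for -/- against WT and for the F-test, as did their calls over all probe sets. The -/- and +/- groups then rest on a lone array each. For Neo2/Neo2 against WT it was 4, when 911 probe sets of all were called. For Neo2/Neo2 against Neo2/Neo it was 11, when 4992 of all were, and 1 with all arrays, as reported. The count for that pair was 13 with array weights, 3 with the replicate block and 2 with an intensity trend. It was 2 among the 14 probe sets at or above the median signal. The F-test gave 4 with array weights and 1 with centred arrays. Calls over all probe sets are not set beside these counts or those with 1 array left out, so the counts are not read as particular to these genes. Leaving out 1 array gave 0 to 9 for that pair (9 without either -/- array, 3 without either +/- array, 2 without Neo2/Neo2 replicate 1), 0 to 6 for the F-test (6 without -/- replicate 2), 0 to 2 for +/- (2 without +/- replicate 2), 0 to 1 for Neo2/Neo2 (1 without its replicate 1) and 0 for -/- against WT. The globin mean minus the membrane mean, -/- against WT, was 0.37, but 0.68 without the 2 arrays that stood apart, and 0.047 to 0.68 with 1 array left out. Of the 8 gene differences from WT, that of Rhag in -/- turned, to 0.46 without -/- replicate 2 (-1.36 without -/- replicate 1). With 1 array left out, 7 of the 8 moved by over 1.5 times in -/-, 5 in Neo2/Neo2, 5 in Neo/+, 3 in +/- and 1 in Neo2/+. Among them were Slc4a1 (-0.25), Rhag (-0.35), Ank1 (-0.16) and Hbb-bh1 (-0.11) in Neo/+ without its replicate 2, Rhag in +/- without its replicate 2 (-0.35), and Sptb without WT replicate 1 in +/- (-0.50), Neo2/+ (-0.49) and Neo/+ (-0.12). A genotype with 1 array left out is a lone embryo assumed to vary like the others. The cause of these changes was not tested. Replicate numbers share only a number: over 36 pairs of genotypes the correlation of their deviations ran from -0.26 to 0.19, and 9 were over 0.1, so the samples were not taken as paired. The replicate block changed no other count of the 19. RMA values carry no detection call, and 2 arrays a genotype limit the precision. The correlation within genotypes without the -/- embryos and the brighter _a_at probe set of Hbb-bh1 were chosen after seeing the data. So was the embryo order at the second Slc4a1 probe set.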

Other observations

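The adult globins were listed with 10 genes, of which 3 had a probe set with that symbol alone. Hbb-b2, a beta-like adult globin gene, had a mean log2 signal of 6.39 over the 18 arrays, Hba-a2 5.62 and Hba-a1 3.84. Any probe set annotated with several symbols was left out, so these values may miss part of the adult globin signal. limma called 0 of them in any genotype against WT or in Neo2/Neo2 against Neo2/Neo. Hba-a2 had a difference of -0.67 in Neo2/Neo2 against WT and -0.16 in -/- against WT. The 3 genes had r = 0.36 (Hbb-b2), 0.33 (Hba-a2) and -0.20 (Hba-a1) with Hba-x over the 18 arrays, as a description.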
